A study of Bos taurus with 12 samples.

Results

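The comparison of bovine conceptuses from in vitro fertilization and culture (IVP) with conceptuses from embryos formed in vivo after artificial insemination (AI) covered 6 arrays, 3 of each origin, of the 12 arrays in the series. It was described across all probe sets other than array controls that lay above log2 4, the level taken as the floor of detection, on at least 3 of these 6 arrays. This left 6617 of 24016 probe sets, or 27.6%, of which 4843 carried exactly 1 gene symbol and stood for 4217 genes. The floor decided few members by a narrow margin, since 108 probe sets lay within 0.05 log2 units above it and 119 within the same distance below it on the array that decided their entry.

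All conceptuses were collected at day 16 of gestation after blastocysts had been transferred to synchronized recipient cows, and conceptuses of similar length were used. AI embryos had developed in the reproductive tract before transfer, whereas IVP embryos had been fertilized and cultured in the laboratory, so both groups shared the transfer and the recipient uterus. A further group of 3 arrays came from embryos made by somatic cell nuclear transfer (SCNT), in which the nucleus of a donor fibroblast replaces that of the oocyte, and its values are given beside those of IVP. RNA was taken from 10 mg of tissue. Whether each array stands for its own conceptus or for a pool is not stated in the labels, and the spread behind the p-values is that of the 3 arrays of a group, part of which may be technical.

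Before it attaches, the ruminant conceptus elongates from a sphere into a long filament made almost entirely of trophoblast, the outer epithelium that later forms the fetal placenta. The trophoblast absorbs the fluid and nutrients secreted by the uterine glands, takes up and remodels lipids, makes prostaglandins and steroids, and secretes interferon tau, the signal by which the cow recognizes the pregnancy. In vitro production exposes the embryo to culture medium in its first week, and conceptuses derived from it are known to differ in growth and in survival from those conceived in vivo.

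The tissue identity matched the labels. Of the 10 trophoblast markers on the array, 8 lay above log2 4 on all 6 arrays, and both groups were similarly high for IFNT2, which encodes interferon tau, with means of 13.25 in AI and 13.29 in IVP. The probe sets for the markers KRT8 and ELF5 lay below the floor. None of 8 blood markers, among them HBA, HBB, PTPRC and CD3E, lay above log2 4 on any of the 6 arrays, nor did 7 of 9 endometrial and 7 of 8 fibroblast markers. The embryonic disc markers POU5F1 and SOX2 were also below the floor. Of the 9 hypoblast markers on the array, GATA6, APOA1 and RBP4 were present on all 6 arrays. Another 5, among them GATA4, HNF4A and AFP, lay above log2 4 on none. The summed linear signal of the endometrial markers was 71.2 to 98.9 on the AI arrays and 63.9 to 70.2 on the IVP arrays, and their part in the results was not tested.

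The arrays differed in technical measures that partly followed the groups. The added spike-in transcripts had mean log2 signals of 7.86, 8.61 and 7.69 on the AI arrays and 8.08, 8.61 and 8.57 on the IVP arrays, so AI 2, IVP 2 and IVP 3 stood above the rest. The difference between the 3' and the 5' probe sets of GAPDH, which widens when RNA is partly degraded, was 0.22, 0.21 and 0.38 in AI and 0.35, 0.51 and 0.89 in IVP. The same difference for actin was 0.23, 0.77 and 0.18 in AI and 0.24, 0.24 and 0.56 in IVP, so it did not follow the groups. For the control EF1A it was -3.87, -3.45 and -4.18 in AI and -3.96, -3.91 and -2.47 in IVP. In each of these controls IVP 3 had the highest value of the IVP arrays. Counts are therefore given below also without the 3 arrays of high spike-in signal, a comparison of 2 AI arrays with 1 IVP array that is assumed to vary like the other groups, and with the GAPDH difference as a covariate.

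In vitro production was accompanied by changes in both directions. By limma's moderated test with Benjamini-Hochberg adjustment, 1223 of 6617 probe sets, or 18.5%, had an adjusted p under 0.05. Of these, 566 (8.55%) were higher in IVP and 657 (9.93%) were lower. The median log2 difference over all 6617 probe sets was 0.02, and the central 90% of differences, from the 5th to the 95th percentile, ran from -0.89 to 0.68. The falls were the larger changes, with 252 probe sets (3.81%) lower by 2-fold or more against 110 (1.66%) higher by as much. With groups below the floor raised to log2 4, which makes their differences lower bounds, these counts were 203 and 98, and a difference of at least 8-fold was reached by 8 falls and 3 rises. The count of rises moved most when arrays were left out, to 320 without IVP 1, 333 without IVP 3, 356 without AI 3 and 372 without AI 1, while falls stayed between 467 and 671. Without the 3 arrays of high spike-in signal the calls were 196 rises and 356 falls, and with the GAPDH covariate they were 179 and 311.

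**Figure D1:**
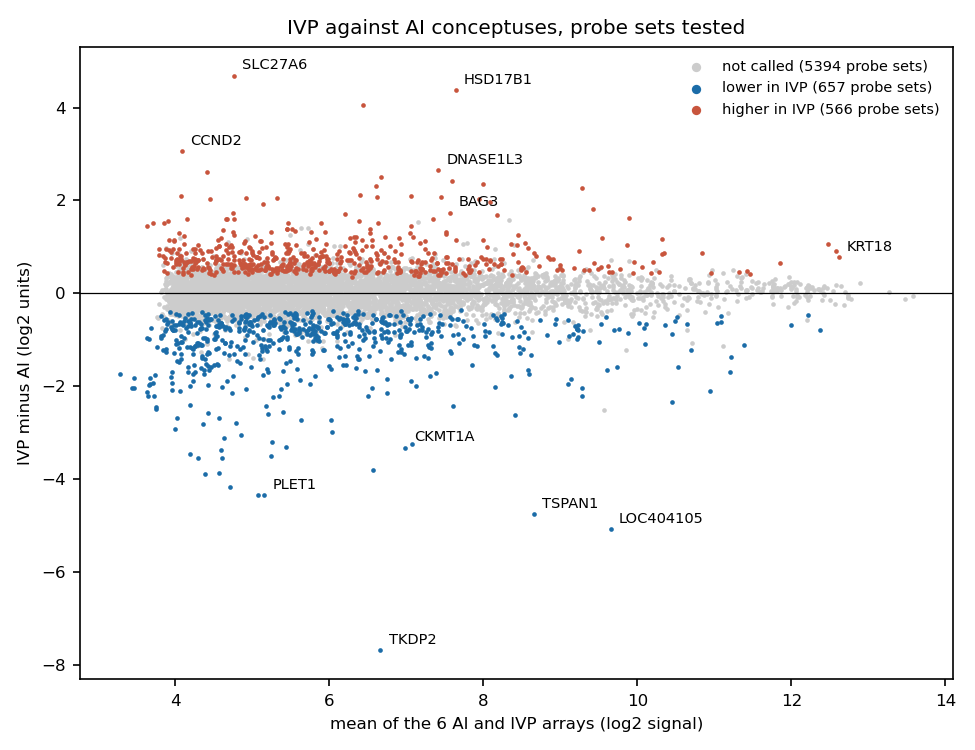
Log2 difference between IVP and AI (y axis, mean of 3 IVP minus mean of 3 AI arrays) against the mean log2 signal of the 6 arrays (x axis), 1 point per probe set. Red points are the 566 probe sets called higher, blue points the 657 called lower and grey points the rest, and the extreme points lie below zero more often than above it.

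In the plot of difference against mean signal, changes occurred over the whole range of signal. Of the 5594 probe sets above the floor on all 6 arrays, 916 were called (16.4%), 453 of them higher and 463 lower, so most of the excess of falls lay among probe sets below the floor on some array. A pattern of presence on all 3 AI arrays and on no IVP array was shown by 125 probe sets, and the opposite by 70. Separation of the 3 IVP from the 3 AI arrays without overlap was common, with 2486 probe sets (37.6%), 1309 of them higher (19.8%) and 1177 lower (17.8%), so it is given for single genes below as a description of the values. Where 2 or more probe sets of a gene were tested and at least 1 was called, all of them had the same sign of difference in 115 of 137 genes (83.9%). Levels are not compared between probe sets, whose signals depend on their own sequences.

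The largest rises included SLC9A3, NHERF1 and ATP1B3. SLC9A3, a sodium and proton exchanger of absorptive epithelia, had log2 signals of 5.42, 5.51 and 5.14 in AI and of 7.38, 7.08 and 6.74 in IVP. Every IVP array lay above every AI array, and the level was 3.28-fold higher (95% interval 2.24 to 4.80, adjusted p = 0.00142). NHERF1 encodes the scaffold that holds such exchangers at the apical membrane. Its signals were 5.55, 5.39 and 5.41 in AI and 8.22, 7.05 and 8.04 in IVP, again without overlap, with IVP 2 the lowest of the 3 (adjusted p = 0.000301). ATP1B3, a beta subunit of the sodium pump, read 8.61, 8.66 and 8.29 in AI, 10.79, 10.23 and 10.00 in IVP, and 10.52, 10.88 and 10.88 in SCNT. All IVP arrays were thus far above the AI arrays, with a rise of 3.52-fold over AI (2.57 to 4.83, adjusted p = 0.000333). IVP 1 lay within the range of the SCNT arrays, and IVP 2 and IVP 3 lay below it. SLC10A1, a sodium-coupled bile acid transporter, rose in 3 of its 4 probe sets.

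Other transporters fell, so the transport lists as a whole were mixed. Of 22 measured genes for transport of sugars, ions, metals and vitamins, 4 rose and 2 fell, with a median log2 difference of 0.05 against 0.06 over all 4217 genes. Over all these genes, with 1 probe set each, 9.6% rose and 8.47% fell. Every list count below is to be read beside these shares. Counts and shares include genes above the floor in only 1 group. Such genes passed the filter through that group, so only 1 direction was open to them. The 2 falls among the 22 genes were S100G, a calcium-binding protein present only on AI arrays, and ATP2B1, a calcium pump of the plasma membrane. ATP2B1 was at 6.83, 6.68 and 6.97 in AI and at 5.83, 5.89 and 6.39 in IVP, with no overlap. It was 1.73-fold lower (adjusted p = 0.00978), and its second probe set was lower too. Among 9 genes for transport of amino acids and peptides, SLC1A5 and SLC7A5 rose while SLC15A1, SLC38A2 and SLC43A2 fell. The rises in this list numbered 0 without AI 3 or IVP 3 and with the spike-in or the GAPDH measure as a covariate. Its falls numbered 1 without AI 3 or IVP 1. SLC43A2 lost its call in 7 of the 9 omissions of a single array and SLC1A5 in 4. SLC15A1, which takes up small peptides, read 6.51, 6.64 and 6.84 in AI and 5.04, 5.88 and 5.67 in IVP, a separated and 2.19-fold lower level (adjusted p = 0.00378).

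**Figure D2:**
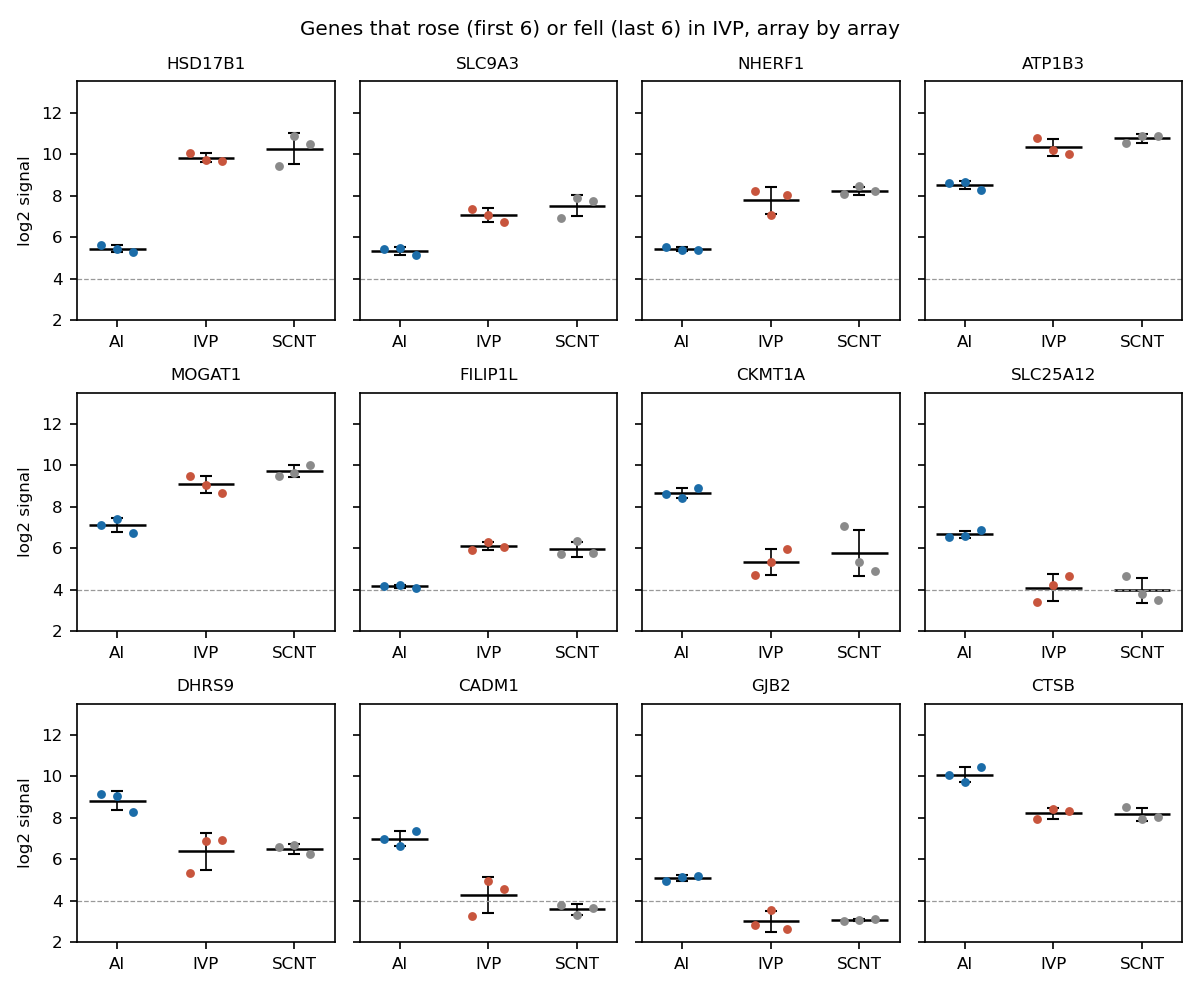
Log2 signal (y axis) of 6 genes that rose in IVP (HSD17B1, SLC9A3, NHERF1, ATP1B3, MOGAT1, FILIP1L) and 6 that fell (CKMT1A, SLC25A12, DHRS9, CADM1, GJB2, CTSB), 1 point per array in AI, IVP and SCNT, with the group mean as a line, the SD as a bar and log2 4 as a dashed line. In all 12 panels the 3 IVP points lie apart from the 3 AI points.

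Most calls among genes for uptake, activation and storage of fatty acids were rises. Of 23 measured members, 11 rose, 2 fell and 10 were not called, and the median log2 difference was 0.60, beside 9.6% risen and 8.47% fallen over all genes and a median of 0.06. The median of the list, taken on each array relative to the AI mean, was 0.72, 0.49 and 0.60 on the 3 IVP arrays, 0.27, 0.61 and 0.47 on the SCNT arrays, and between -0.02 and 0.03 on the AI arrays. The number of rises was 8 to 13 when single arrays were left out, and 6 both without the arrays of high spike-in signal and with the GAPDH covariate.

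The risen members covered successive steps of lipid handling. SLC27A6, a fatty acid transport protein, was at the array minimum of 2.42 on all 3 AI arrays and at 7.62, 6.46 and 7.23 in IVP. ACSL3, which couples fatty acids to coenzyme A, rose in all 3 of its probe sets, by 3.22-fold in the brightest. MOGAT1, which adds an acyl chain to monoacylglycerol on the way to stored fat, read 7.12, 7.43 and 6.76 in AI and 9.49, 9.05 and 8.68 in IVP, so the lowest IVP array exceeded the highest AI array by a wide margin. Its rise was 3.92-fold (2.73 to 5.65, adjusted p = 0.00048). The desaturases SCD and FADS2, which insert double bonds, rose by 2.27-fold and 3.08-fold. The elongases ELOVL5 and ELOVL7, the acyltransferase AGPAT3, fatty acid synthase FASN, the binding protein FABP3 and GPD1L were the other rises.

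The 2 falls in this list were FABP5 and ACSS2, which activates acetate. FABP5, a fatty acid binding protein of epithelia, had signals of 12.04, 12.17 and 11.97 in AI and of 9.79, 10.67 and 10.62 in IVP. The groups did not overlap, the level was 3.25-fold lower, and the second probe set was 6.13-fold lower. Use of fatty acids as fuel did not move as a list, with 0 rises and 1 fall among 19 genes of fatty acid oxidation and a median of -0.01. The fall was SLC25A20, the carnitine carrier of mitochondria, at 7.35, 6.74 and 7.83 in AI and at 5.44, 5.81 and 5.66 in IVP, which is 3.18-fold lower (adjusted p = 0.00187) and was repeated in its second probe set. Cholesterol synthesis had 1 fall, HMGCS1, and no rise among 15 genes, with a median of -0.33 and only 3 members above zero. The call of HMGCS1 was lost without AI 3 and without IVP 1.

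Steroid and cholesterol delivery genes were sharply divided. HSD17B1, the enzyme that makes estradiol from estrone, read 5.64, 5.42 and 5.29 in AI, 10.07, 9.74 and 9.69 in IVP and 9.42, 10.87 and 10.47 in SCNT. SCARB1, the receptor for high-density lipoprotein, was at 5.58, 6.01 and 5.16 in AI and at 7.99, 7.59 and 7.38 in IVP. Both were thus clearly higher on every IVP array, and they were the 2 rises among 17 measured genes. The 4 falls were STAR and TSPO, which bring cholesterol into mitochondria, NPC2, which carries it out of lysosomes, and AKR1B1, an aldo-keto reductase. STAR read 6.88, 5.66 and 6.33 in AI and 2.81, 2.81 and 3.10 in IVP, so it was below the floor on every IVP array. NPC2 was at 10.24, 10.60 and 10.78 in AI and at 8.70, 9.06 and 9.07 in IVP, without overlap and 3.02-fold lower (adjusted p = 0.000293).

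The trophoblast and hypoblast receive vitamin A from the uterus and turn it into retinoic acid, which acts through nuclear receptors. Of 7 measured genes of retinoid handling, 5 fell, 0 rose and 2 were not called, with a median log2 difference of -0.56. The share of falls was 71.4%, beside 8.47% of all genes. The list median relative to the AI mean was -0.75, -0.39 and -0.64 on the IVP arrays and -0.54, -0.58 and -0.67 on the SCNT arrays. DHRS9, a dehydrogenase that acts on retinol, read 9.13, 9.04 and 8.30 in AI and 5.35, 6.87 and 6.94 in IVP, and the lowest AI array stood above all IVP arrays. It was 5.41-fold lower (3.02 to 9.71, adjusted p = 0.00209). The receptor RXRA was at 6.39, 5.99 and 7.22 in AI and at 5.57, 5.07 and 5.29 in IVP, a separated level that was 2.34-fold lower (adjusted p = 0.0109). RBP4, the retinol carrier in plasma, BCO2, which cleaves carotenoids, and DHRS3, which reduces retinal, were the others, with small margins: RBP4 had an adjusted p of 0.0448. DHRS3 passed the filter through the AI arrays alone, so a fall was the only direction open to it. Against the floor it was at least 1.04-fold lower, and its call was lost with values below log2 4 set to 4. The number of falls went from 5 to 2 without AI 1, AI 3 or IVP 1, to 3 without IVP 3, and to 1 without the arrays of high spike-in signal or with the GAPDH covariate, while DHRS9 kept its call in each of these settings.

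Components of cell contacts fell more often than they rose. Among 27 measured genes for junctions and adhesion, 11 fell (40.7%) and 1 rose (3.7%), beside 8.47% and 9.6% of all genes. The median was -0.21, and 9 members lay above zero. Of the falls, GJB2, GJB5 and CLDN1 passed the filter through the AI arrays alone, so no other direction was open to them. List medians relative to AI were -0.23, -0.27 and -0.24 on the IVP arrays and between -0.01 and 0.02 on the AI arrays. Without AI 1 or without IVP 1 the falls numbered 7, and they numbered 6 without the arrays of high spike-in signal and 6 with the GAPDH covariate.

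The fallen members came from several kinds of contact. GJB2, a connexin that builds gap junction channels, had signals of 4.96, 5.16 and 5.20 in AI and of 2.83, 3.57 and 2.63 in IVP, so it was present on every AI array and below the floor on every IVP array, a level at least 2.16-fold lower. GJB5, another connexin, behaved alike, at 4.54, 4.85 and 4.69 in AI and at 2.54, 2.60 and 2.54 in IVP. GJA1, the third connexin measured and the main one of many epithelia, was not called, with a log2 difference of 0.97 and an adjusted p of 0.0739. The tight junction proteins CLDN1, CLDN4 and CLDN6 were 3 falls among 5 claudins measured. CLDN4 was at 8.53, 8.59 and 8.35 in AI and at 7.81, 7.70 and 7.45 in IVP, and the groups did not overlap (1.79-fold lower, adjusted p = 0.00701).

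Classical cadherins moved in opposite directions. CDH1, the epithelial cadherin, read 8.80, 8.69 and 9.04 in AI and 8.25, 8.09 and 8.04 in IVP, a separated level that was 1.65-fold lower (adjusted p = 0.00638). CDH2, the cadherin of mesenchyme and nerve, read 4.82, 4.68 and 4.52 in AI and 5.49, 5.49 and 5.41 in IVP, and was 1.73-fold higher (adjusted p = 0.00315). CADM1, an adhesion molecule of the immunoglobulin family, was among the largest falls outside the list, at 6.96, 6.66 and 7.37 in AI and at 3.29, 4.96 and 4.55 in IVP. The IVP array furthest from AI lay below the floor, and the level was 6.64-fold lower (adjusted p = 0.000807). TSPAN1, a tetraspanin of epithelial membranes, went from 11.06, 10.89 and 11.16 in AI to 4.87, 6.95 and 7.01 in IVP. NECTIN2, PERP, PARD6B and the integrin ITGAV also fell, of which PARD6B lost its call in 7 of the 9 omissions of a single array.

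**Figure D3:**
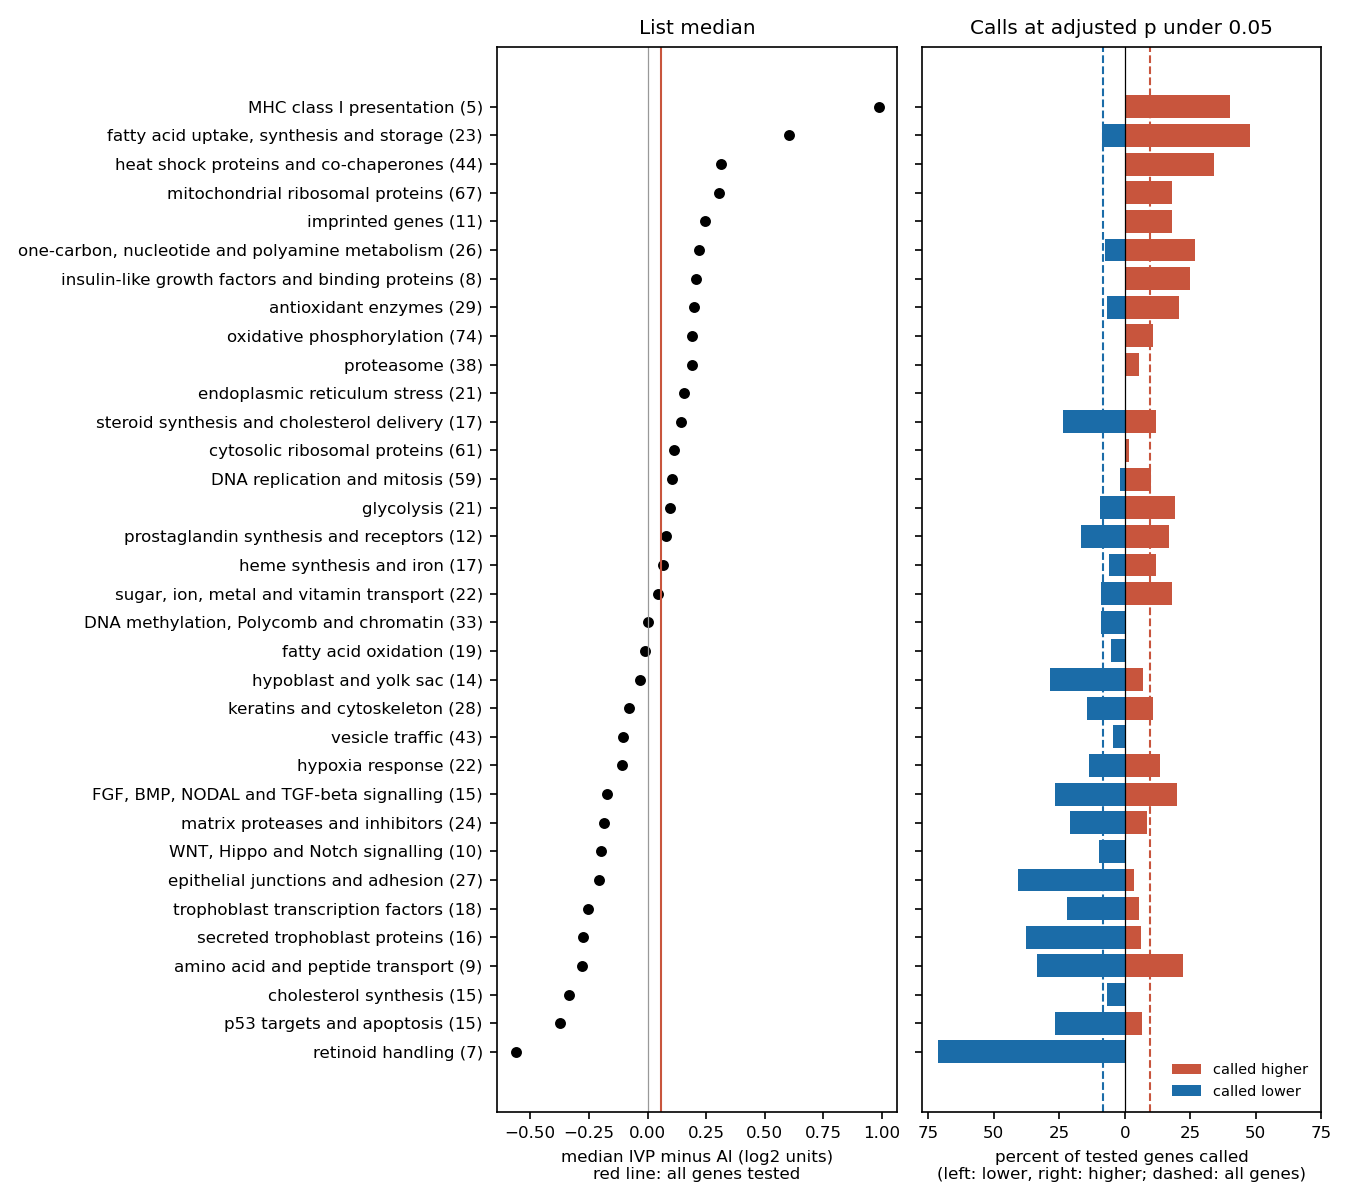
Gene lists with at least 5 measured genes: left, the median log2 difference IVP minus AI of the list (points) with the median of all genes as a red line; right, the percent of the list's genes called higher and called lower, with the percents over all genes as dashed lines. Fatty acid genes have a median of 0.60 and retinoid genes one of -0.56, on opposite sides of the line for all genes at 0.06.

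Of 8 cathepsins measured, 2 fell, 1 rose and 5 were not called. Trophoblast cells secrete cathepsins and also use them to digest what they take up from uterine fluid. CTSB, cathepsin B, had signals of 10.07, 9.71 and 10.43 in AI, 7.92, 8.40 and 8.34 in IVP, and its second probe set fell as well. The groups lay far apart, with a fall of 3.60-fold (2.57 to 5.02, adjusted p = 0.000427). CTSL, cathepsin L, was 2.33-fold lower at 9.88, 10.06 and 10.32 in IVP against 11.22, 11.10 and 11.60 in AI, while CTSH rose. Over the list of 24 matrix proteases and inhibitors, 5 fell and 2 rose, with a median of -0.19. Omission of single arrays left 4 to 6 falls, but both rises were lost without AI 3, IVP 2 or IVP 3.

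Inhibitors in the list that fell were CST3, the main inhibitor of cathepsins in body fluids, SPINT2 and SPINK4. CST3 fell in 1 of its 3 probe sets, at 10.51, 10.50 and 10.93 in AI and 9.41, 9.52 and 9.72 in IVP, while the dimmer probe sets had log2 differences of -0.25 and 0.10 and were not called. Several further lysosomal genes were among the 20 largest falls with both group means above the floor. DNASE2, which digests DNA in lysosomes, was at 8.28, 7.69 and 8.41 in AI and at 6.03, 6.01 and 6.35 in IVP, without overlap and 3.99-fold lower (adjusted p = 0.000175). PLBD1, a phospholipase B-like protein, was at 9.50, 9.17 and 8.80 in AI and at 7.29, 6.71 and 7.45 in IVP, 4.02-fold lower. DRAM1, a lysosomal membrane protein linked to autophagy, was at 7.71, 7.06 and 7.94 in AI and at 5.12, 5.73 and 5.76 in IVP, 4.10-fold lower. CTSB, CTSL, NPC2, DNASE2, PLBD1 and DRAM1 each kept the call under every omission of 1 array, without the arrays of high spike-in signal and with the GAPDH covariate.

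Metabolic enzymes and carriers supplied other large falls. CKMT1A, the creatine kinase of mitochondria, read 8.63, 8.43 and 8.90 in AI, 4.70, 5.33 and 5.96 in IVP and 7.05, 5.36 and 4.92 in SCNT. No IVP or SCNT array reached the AI range, and IVP was 10.0-fold lower than AI (4.82 to 20.8, adjusted p = 0.00127). SLC25A12, which exchanges aspartate for glutamate across the inner membrane, was at 6.56, 6.62 and 6.86 in AI and at 3.41, 4.25 and 4.68 in IVP. It was 5.92-fold lower (adjusted p = 0.000725), its second probe set fell too, and 1 IVP array lay below the floor. GALM, which interconverts the anomers of galactose and glucose, was at 10.43, 10.16 and 10.30 in AI and at 7.77, 8.55 and 8.48 in IVP, separated and 4.09-fold lower.

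Calls among proteins of the mitochondrial ribosome were all rises. Of 67 measured genes, 12 rose and 0 fell, 61 lay above zero, and the median log2 difference was 0.30. The share of rises was 17.9%, beside 9.6% of all genes. The list median relative to the AI mean was 0.28, 0.23 and 0.40 on the IVP arrays and 0.55, 0.40 and 0.30 on the SCNT arrays, while the AI arrays lay between -0.05 and 0.02. Rises came from both subunits, 9 of 43 genes of the large and 3 of 24 of the small one. MRPS7 had the tightest AI arrays, at 5.63, 5.63 and 5.64, against 6.47, 6.19 and 6.30 in IVP, a separated level that was 1.61-fold higher (adjusted p = 0.00398). MRPL12 read 6.07, 5.79 and 6.30 in AI and 6.82, 7.07 and 7.30 in IVP, and was 2.02-fold higher (adjusted p = 0.00575).

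The count of calls in this list depended on single arrays and on the setting. The rises fell from 12 to 6 without IVP 3, to 2 without the arrays of high spike-in signal and to 1 with the GAPDH covariate. The median stayed above that of all genes in either subset: it was 0.26 in AI 1, AI 3 and IVP 1 alone, where all genes had 0.05, and 0.39 in AI 2, IVP 2 and IVP 3 alone, where all genes had 0.09. Cytosolic ribosomal proteins had 1 rise among 61 genes, RPL22, and a median of 0.11.

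Nuclear-coded subunits of oxidative phosphorylation rose in 8 of 74 cases and fell in 0, with a median of 0.19. Complex III, which passes electrons to cytochrome c, held 4 of the 8 among its 9 measured genes, namely UQCRQ, UQCRB, UQCRH and UQCR10. UQCRB read 9.75, 9.80 and 9.76 in AI and 10.44, 10.08 and 10.52 in IVP, all above AI, for a rise of 1.49-fold (adjusted p = 0.015). Complex I had 2 rises among 37 genes and ATP synthase 2 among 15, and complexes II and IV had 0 among 4 and 9. The 8 rises became 1 without AI 1, 3 without AI 3 or IVP 1, 0 without IVP 3, 5 without SCNT 2, 1 without the arrays of high spike-in signal and 0 with the GAPDH covariate. Their share of 10.8% was close to the 9.6% of all genes.

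**Figure D4:**
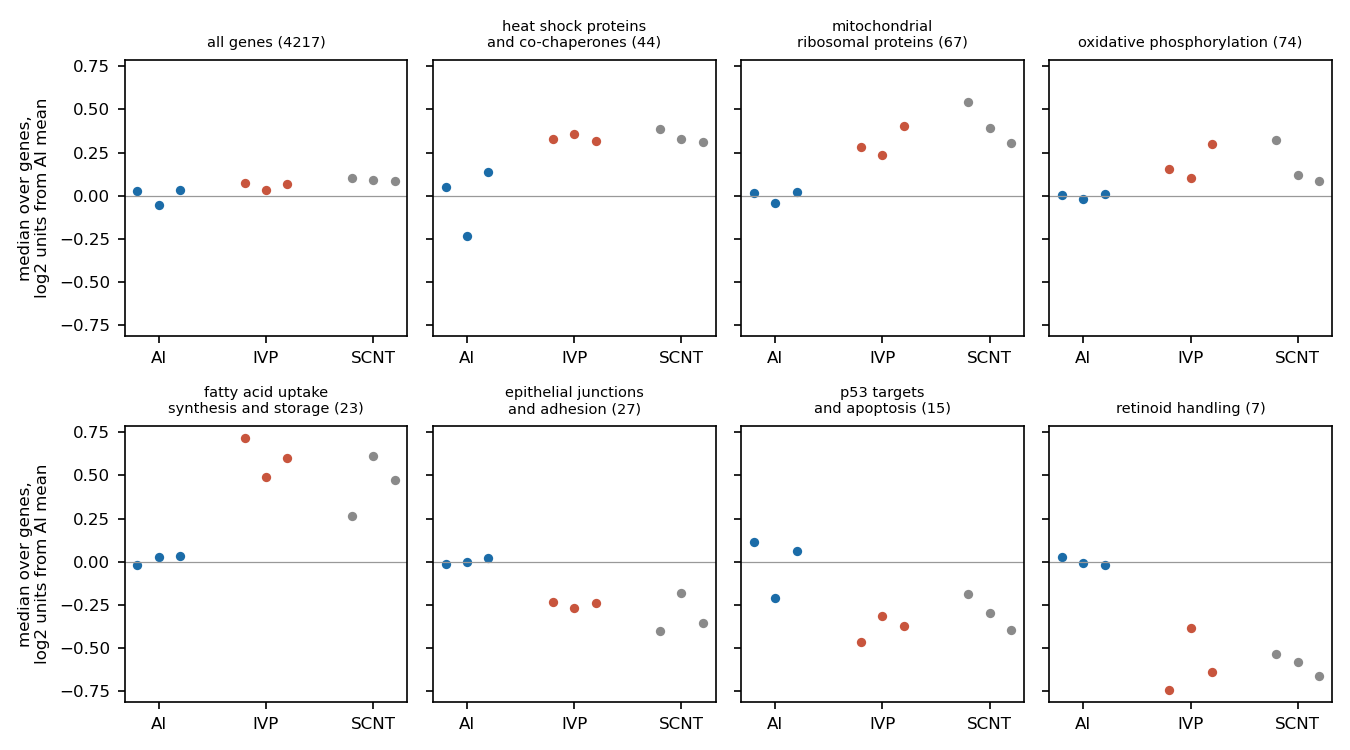
Median log2 signal of a gene list on each array relative to the mean of the 3 AI arrays (y axis), 1 point per array in AI, IVP and SCNT, for all genes and 7 lists. Heat shock, mitochondrial ribosomal, oxidative phosphorylation and fatty acid genes lie above zero on all 3 IVP arrays, and junction, p53 and retinoid genes below.

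Heat shock proteins and co-chaperones, which fold new and damaged proteins, rose in 15 of 44 cases and fell in 0, with a median of 0.31. Rises thus made up 34.1%, beside 9.6% of all genes. The list median was 0.33, 0.36 and 0.32 on the IVP arrays, 0.39, 0.33 and 0.31 on the SCNT arrays, and 0.05, -0.23 and 0.14 on the AI arrays, of which AI 2 was the lowest. The rises belonged to several families, with 3 of 6 subunits of the CCT chaperonin, which folds actin and tubulin, 3 of 6 HSPA proteins and 1 of 10 DNAJ proteins. All 6 CCT subunits lay above zero, with a median of 0.42. CCT5 was at 7.86, 7.42 and 7.90 in AI and at 8.32, 8.27 and 8.47 in IVP, separated and 1.54-fold higher (adjusted p = 0.0171).

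BAG3, a co-chaperone of HSPA proteins, rose the most within the list. It read 6.69, 6.11 and 7.31 in AI, 8.25, 8.25 and 8.82 in IVP and 7.30, 6.79 and 6.93 in SCNT, so the IVP arrays lay above both other groups. Its difference from SCNT was not called (adjusted p = 0.0646 in limma). TRAP1, the HSP90 of mitochondria, was at 5.17, 4.65 and 4.92 in AI and at 5.70, 5.41 and 5.87 in IVP, with 1.68-fold more in IVP (adjusted p = 0.0112). SERPINH1, the collagen chaperone, and CACYBP also rose, by 1.77-fold and 1.72-fold. The call of HSPH1 was lost without AI 1, IVP 1 or IVP 3. Rises in the list numbered 8 without AI 1, 9 without AI 2, 6 without IVP 1, 5 without IVP 3, 3 with the GAPDH covariate and 0 without the arrays of high spike-in signal, where the list median was 0.25. Endoplasmic reticulum stress genes had 0 calls among 21, and proteasome genes 2 rises among 38, UCHL5 and PSMG1.

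Antioxidant enzymes had 6 rises (20.7%) and 2 falls (6.9%) among 29 genes, beside 9.6% and 8.47% of all genes, with a median of 0.20. GPX1, which reduces hydrogen peroxide with glutathione, was at 6.37, 6.71 and 6.17 in AI and at 9.10, 7.98 and 8.42 in IVP, with no overlap and IVP 1 the highest. TXNRD1, which recharges thioredoxin, was at 5.84, 5.86 and 5.45 in AI and at 7.27, 6.74 and 6.80 in IVP, and it was 2.32-fold higher (adjusted p = 0.00199). PRDX5, GPX2, TXN and ME1 were the other rises. The falls were PRDX3 and GSTO1, a transferase of the omega class that read 7.52, 6.20 and 7.58 in AI and 2.92, 5.53 and 2.91 in IVP. Its IVP 2 array was well above the other 2 of its group yet still under all AI arrays, and the level was at least 6.02-fold lower (adjusted p = 0.00516). The rises numbered 3 with the GAPDH covariate.

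In one-carbon, nucleotide and polyamine metabolism 7 of 26 genes rose (26.9%) and 2 fell (7.69%), with a median of 0.22. Over all genes these shares were 9.6% and 8.47%. MTHFD1L, MTHFD2 and SHMT2 encode mitochondrial folate enzymes, which supply formate for purine synthesis. MTHFD1L read 3.78, 3.73 and 3.01 in AI and 4.51, 4.80 and 4.89 in IVP, so it crossed the floor and was at least 1.66-fold higher (adjusted p = 0.00272). MTHFD2 was at least 1.31-fold and SHMT2 at least 1.45-fold higher. CAD, the first enzyme of pyrimidine synthesis, was at 4.31, 4.11 and 4.28 in AI and at 4.84, 4.83 and 5.19 in IVP, a 1.65-fold rise. The rises numbered 4 without AI 1, IVP 1, IVP 3 or SCNT 2, 3 with the GAPDH covariate and 0 without the arrays of high spike-in signal.

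Both falls of that list concern the metabolism of arginine and ornithine. ODC1, which makes the polyamine putrescine from ornithine, was at 11.92, 11.82 and 11.96 in AI and at 10.18, 10.90 and 10.53 in IVP. It was among the most abundant signals that fell, with a 2.58-fold lower level and no overlap (adjusted p = 0.00193). ASS1, an enzyme of arginine synthesis, was at 7.92, 7.39 and 8.22 in AI and at 6.93, 6.89 and 6.36 in IVP, 2.17-fold lower (adjusted p = 0.00929). Replication and mitosis genes had 6 rises and 1 fall among 59, with a median of 0.10, and their share of rises, 10.2%, was close to the 9.6% of all genes. CCND2, a cyclin that drives entry into the cell cycle, was the largest of them, at 2.53, 2.59 and 2.53 in AI and 5.86, 5.63 and 5.36 in IVP. The rises in that list numbered 3 without AI 1 or AI 3, 2 without IVP 1 and 1 without IVP 3, without the arrays of high spike-in signal or with the GAPDH covariate.

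Secreted proteins of the trophoblast fell in 6 of 16 cases (37.5%, beside 8.47% of all genes) and rose in 1, with a median of -0.27. Pregnancy-associated glycoproteins (PAG) and trophoblast Kunitz domain proteins (TKDP) are large families of near-identical genes, so a probe set may bind more than 1 member and the member named is uncertain. TKDP2 was at 11.16, 10.08 and 10.28 in AI and at 2.56, 3.33 and 2.56 in IVP, near the array minimum. TKDP4 was at 12.68, 12.90 and 12.73 in AI and at 11.50, 12.20 and 12.26 in IVP, a much smaller fall of 1.72-fold (adjusted p = 0.047), and TKDP1 had means of 13.62 and 13.55. Within the PAG family the directions differed: PAG12 and PAG8 fell, PAG11 rose, and PAG2 had means of 12.69 in AI and 12.71 in IVP.

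PAG12 showed the widest spread of these within IVP. Its signals were 11.88, 11.78 and 11.18 in AI and 7.64, 10.62 and 9.57 in IVP, with the lowest IVP array well below the others. It was 5.05-fold lower, but the interval ran from 2.00 to 12.8 and the call (adjusted p = 0.0225) was lost without AI 1 or AI 2. PAG11 was at 11.55, 12.30 and 11.97 in AI and at 13.17, 12.93 and 12.91 in IVP, separated and 2.09-fold higher (adjusted p = 0.00347). The falls in the list numbered 3 with the GAPDH covariate, and the summed linear signal of the trophoblast markers was 44116 to 51094 on the AI arrays and 52331 to 55674 on the IVP arrays.

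Trophoblast transcription factors fell in 4 of 18 cases, HAND1, ELF3, FOS and ID2, and rose in 1, ASCL2, with a median of -0.25. Falls made up 22.2%, beside 8.47% of all genes. Among them, ELF3 and FOS passed the filter through the AI arrays alone, so a fall was the only direction open to both. ID2, an inhibitor of basic helix-loop-helix factors, was at 7.93, 8.11 and 8.54 in AI and at 6.91, 7.04 and 6.91 in IVP, 2.36-fold lower (adjusted p = 0.00583). FOS, an early response factor, was at 5.11, 5.56 and 4.64 in AI and at 3.94, 3.59 and 3.52 in IVP, so at least 2.15-fold lower. ASCL2, an imprinted factor needed in the mouse placenta, went the other way, from 6.17, 5.75 and 5.61 in AI to 7.68, 6.64 and 7.36 in IVP. The falls numbered 1 without the arrays of high spike-in signal and 1 with the GAPDH covariate.

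Signalling through FGF and BMP had 3 rises and 4 falls among 15 genes. FGFR2, a receptor for uterine FGF, was at 6.76, 6.31 and 7.13 in AI and at 4.45, 5.01 and 4.88 in IVP, a separated level 3.87-fold lower (adjusted p = 0.00048). FGF1 fell in 1 of 2 probe sets, from 5.95, 6.22 and 5.88 in AI to 4.02, 4.37 and 4.37 in IVP, while the other had a log2 difference of -0.06. BAMBI, a decoy receptor for BMP and activin, and ID2 were the other falls. The rises were CRIPTO, a co-receptor for NODAL, BMP7 and FST, the activin-binding protein, whose call was lost without AI 1, AI 2 or IVP 3. CRIPTO, also a marker of the embryonic disc, read 3.01, 3.10 and 3.20 in AI and 5.62, 5.40 and 6.14 in IVP, and the other 3 measured markers of the disc were below the floor on all 6 arrays. Both VEGFA probe sets rose, the brighter one from 5.46, 5.31 and 5.06 to 6.99, 6.40 and 6.41. The receptor IGF2R and the RNA-binding protein IGF2BP1 rose by 2.02-fold and 1.63-fold among 8 measured genes of insulin-like growth factors.

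Targets of p53 and genes of apoptosis fell in 4 of 15 cases (26.7%, beside 8.47% of all genes) and rose in 1, with a median of -0.37. CDKN1A, the inhibitor of cyclin-dependent kinases, was at 4.81, 4.92 and 4.60 in AI and at 3.38, 3.38 and 3.36 in IVP, so it was under the floor on every IVP array. It passed the filter through the AI arrays alone, so a fall was the only direction open to it. The death receptors TNFRSF1A and TNFRSF21 and the oxidoreductase TP53I3 also fell, and BCL2, which blocks apoptosis, rose. The list had 2 falls without the arrays of high spike-in signal.

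Of the 2 rises among 5 measured genes of antigen presentation by MHC class I, B2M was higher in all 3 of its probe sets. TAP2, which pumps peptides toward the MHC molecules, was at 3.98, 3.28 and 2.80 in AI and at 4.65, 4.87 and 5.35 in IVP, or at least 1.94-fold higher (adjusted p = 0.0109). Both calls were lost without the arrays of high spike-in signal and with the GAPDH covariate. Prostaglandin genes had 2 rises and 2 falls among 12. PTGES, which makes prostaglandin E2, was at 3.74, 4.45 and 3.44 in AI and at 6.24, 5.47 and 5.14 in IVP, so at least 2.77-fold higher, whereas PTGS2, the enzyme upstream of it, had means of 11.18 and 11.54 and was not called.

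Glycolysis and the hypoxia response were split. Of 21 glycolytic genes, 4 rose, namely LDHB, the glucose transporter SLC2A1 and the lactate transporters SLC16A1 and SLC16A3, and the muscle and brain isozymes ENO3 and ALDOC fell. ENO3 was at 6.72, 6.26 and 7.15 in AI and at 4.05, 5.25 and 5.46 in IVP, 3.46-fold lower (adjusted p = 0.0163). The glycolytic rises numbered 0 without AI 3 or IVP 3, 1 without AI 1 or IVP 2, 2 without IVP 1, and 0 without the arrays of high spike-in signal or with the GAPDH covariate. Among 22 hypoxia genes, VEGFA, SLC2A1 and P4HA2 rose while MXI1, ALDOC and EPAS1 fell.

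Markers named for hypoblast and yolk sac fell in 4 of 14 cases (28.6%) and rose in 1 (7.14%), beside 8.47% and 9.6% of all genes. The falls were APOM, ALB, RBP4 and FGG, the last with overlapping groups, and the rise was DAB2. The defining hypoblast genes GATA6, at means of 7.83 and 7.73, and APOA1, at 11.94 and 12.07, were not called, and the summed linear signal of the hypoblast markers was 3709 to 5260 in AI and 4192 to 4992 in IVP. The 4 falls became 0 without IVP 1, 1 without AI 1 or IVP 3, 2 without AI 2 or AI 3, and 0 without the arrays of high spike-in signal or with the GAPDH covariate. In RNA from a whole conceptus, fewer cells of a type and less RNA per cell cannot be told apart.

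Of 28 genes on the array from the list of blood cell genes, only 4 passed the filter. All 4 fell, beside 8.47% of all genes. Their median was -3.64, or -3.02 with groups below the floor raised to it. All 4 kept the call under every omission of 1 array, without the arrays of high spike-in signal and with the GAPDH covariate, while ITGB2 and RAC2 lost it when no filter on low values was used. ITGB2, an integrin chain of leukocytes, was at 8.44, 7.91 and 9.07 in AI, 3.22, 5.73 and 5.06 in IVP and 5.15, 3.56 and 3.70 in SCNT. RAC2, a small GTPase of blood cells, was at 8.69, 8.59 and 8.81 in AI and at 4.21, 5.97 and 6.21 in IVP, 9.41-fold lower (3.95 to 22.5, adjusted p = 0.0037). ALAS2, the heme synthesis enzyme of red cells, and CD48 were above the floor on all AI arrays and below it on all IVP arrays. Both passed the filter through the AI arrays alone, so a fall was the only direction open to them.

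Further genes known from leukocytes were among the largest falls outside the list. ARHGDIB was at 10.49, 10.00 and 10.69 in AI and at 7.72, 8.42 and 8.37 in IVP, with a fall of 4.66-fold (adjusted p = 0.00214). AIF1, known from macrophages, was at 7.78, 7.67 and 7.99 in AI and at 5.21, 5.51 and 6.31 in IVP, a fall of 4.40-fold (adjusted p = 0.00157). The defining blood genes were at or near the array minimum in both groups: the summed linear signal of the 8 blood markers was 44.5 to 50.2 on the AI arrays and 42.9 to 44.3 on the IVP arrays. CD55, which shields cells from complement, fell from 5.67, 6.34 and 7.21 in AI to 4.37, 4.48 and 4.16 in IVP.

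Lists of chromatin genes and of vesicle traffic held few calls. Of 33 genes for DNA methylation, Polycomb and chromatin, 0 rose and 3 fell, EED, KDM6A and H3-3A, and the 9.09% of falls was close to the 8.47% of all genes. EED, a core subunit of the Polycomb complex PRC2, was represented by 13 tested probe sets, of which 8 were called lower and 0 higher. The brightest of these was at 12.04, 12.16 and 11.82 in AI and at 8.68, 10.28 and 10.73 in IVP, a 4.32-fold lower level whose call was lost without AI 1, AI 2, AI 3 or IVP 1. Since probe sets of 1 gene gave signals from near the floor to near the top of the range, what each of them measures is uncertain. H3-3A, a replacement histone, was at 10.15, 10.13 and 10.01 in AI and at 9.20, 9.49 and 9.25 in IVP, 1.72-fold lower (adjusted p = 0.00247). Of 43 vesicle genes 2 fell, RAB25, a GTPase of apical recycling in epithelia, and RAB31. RAB25 was at 7.57, 7.62 and 7.69 in AI and at 6.63, 6.37 and 5.98 in IVP, 2.47-fold lower (adjusted p = 0.00247).

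Among the largest rises outside the lists, FILIP1L, a filamin-interacting protein, was at 4.18, 4.25 and 4.10 in AI and at 5.92, 6.32 and 6.06 in IVP. The groups were narrow and far apart, and the rise was 3.80-fold (2.89 to 4.99, adjusted p = 0.000103). ANXA3, a membrane-binding annexin, and TMEM144 rose by 2.62-fold each, TMEM88, an inhibitor of WNT signalling, by 2.60-fold and the serine protease PRSS23 by 2.51-fold. SRPX and LDOC1 were further falls, of 4.72-fold and 3.90-fold. Among genes present on every AI array and on no IVP array, GNB4, a G protein beta subunit, was at 6.44, 6.29 and 5.85 in AI and at 3.57, 3.38 and 3.26 in IVP, at least 4.57-fold lower. ADGRE5, an adhesion G protein-coupled receptor, was at 5.58, 6.03 and 6.94 in AI and at 2.95, 3.16 and 3.10 in IVP, at least 4.54-fold lower. In the reverse pattern, KIF21A, a kinesin motor, and SFXN1, which carries serine into mitochondria, were at least 1.67-fold and 1.62-fold higher.

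The 3 IVP arrays did not lie equally far from AI. IVP 2 was the IVP array closest to the AI mean in 268 of the 566 rises (47.3%) and in 333 of the 657 falls (50.7%). XIST, which is transcribed from the inactive X chromosome of female cells, was at 4.79, 4.88 and 2.57 in AI. In IVP it ranged from 2.42 on IVP 2 to 6.55 on IVP 3, so it was high and low in both groups. It was at 2.42 on each SCNT array, so IVP and SCNT, compared below, also differed in XIST.

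The AI arrays are the shared reference of IVP and SCNT, so the distances of both from AI are not independent, and IVP was set against SCNT directly. At an adjusted p under 0.05 in limma, 36 of the 6617 (0.544%) separated these groups, 24 of them higher in IVP (0.363%) and 12 lower (0.181%), and 808 had an unadjusted p under 0.05. This count ran from 7 to 64 as single arrays were omitted. Genes that were called against AI and against SCNT, with all IVP arrays outside the range of both, were ZFAND2A, DNAJB1, BMP7, HSPA1A, VCAN and IMMP2L on the higher side and PLET1 on the lower side.

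**Figure D5:**
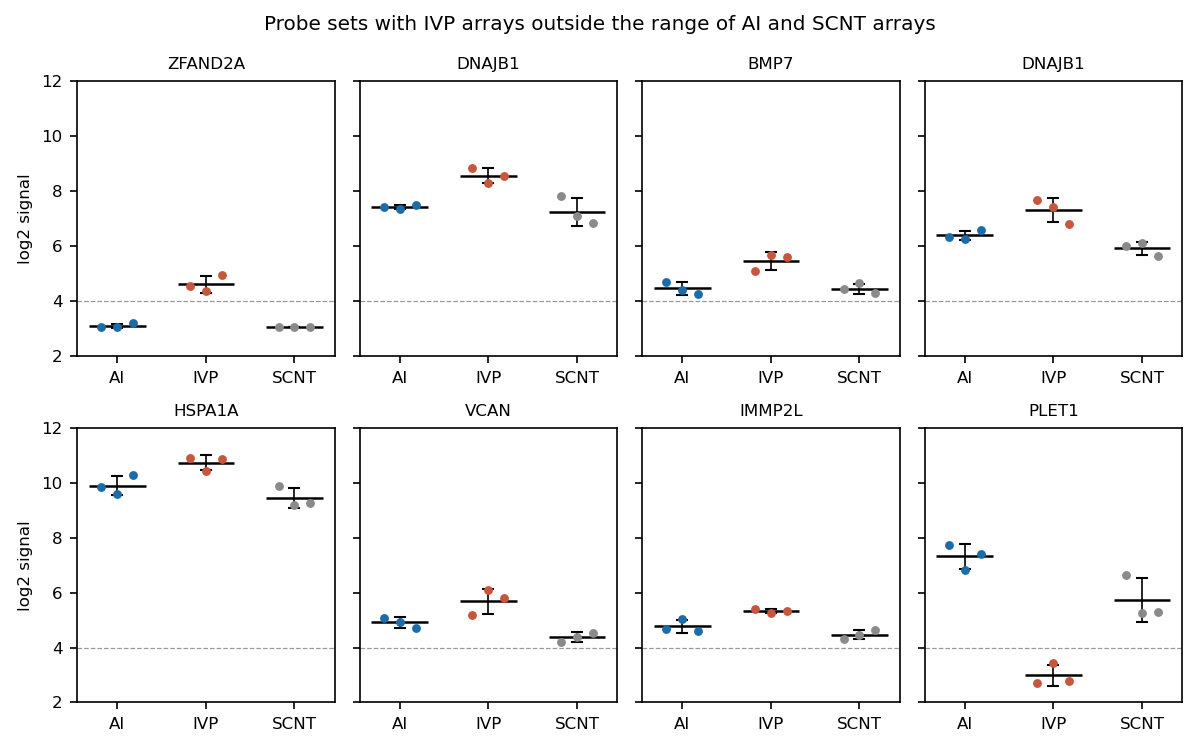
Log2 signal (y axis) of the 8 probe sets in which IVP stood apart from both AI and SCNT, 1 point per array, with the group mean as a line, the SD as a bar and log2 4 as a dashed line. The 3 IVP points lie above all others in 7 panels and below all others for PLET1.

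ZFAND2A, a zinc finger protein induced by heat and arsenite, was below the floor on all AI and SCNT arrays, at 3.05, 3.05 and 3.19 in AI and at 3.05 on each SCNT array, and was at 4.55, 4.35 and 4.95 in IVP. Against the floor, its level was at least 1.53-fold above SCNT, and the call (adjusted p = 0.00142, from the measured values) held under every omission of 1 array. DNAJB1, a co-chaperone of HSPA proteins, had 1 probe set at 7.41, 7.35 and 7.50 in AI, 8.85, 8.29 and 8.57 in IVP and 7.82, 7.10 and 6.84 in SCNT. HSPA1A, the inducible HSP70, had 5 probe sets, of which 2 rose against AI. The brightest was at 9.83, 9.59 and 10.29 in AI, 10.89, 10.44 and 10.88 in IVP and 9.88, 9.20 and 9.28 in SCNT. PLET1, a surface protein of the trophoblast, was at 7.73, 6.84 and 7.41 in AI, 2.72, 3.43 and 2.79 in IVP and 6.65, 5.26 and 5.29 in SCNT. It was the only 1 of these 7 genes that had fallen, and IVP lay under the floor on every array while SCNT lay between.

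Named genes differed in how firmly the call stood. Of 188 named probe sets, 82 kept the call under every omission of a single array, without the arrays of high spike-in signal and with the GAPDH covariate, 32 of them higher in IVP and 50 lower. The rises among them included SLC9A3, NHERF1, ATP1B3, MOGAT1, ACSL3, SCD, HSD17B1, SCARB1, GPX1, TXNRD1, PRDX5, VEGFA and FILIP1L, and the falls included CKMT1A, SLC25A12, CADM1, DHRS9, FABP5, CTSB, CTSL, NPC2, DNASE2, ODC1, GJB2, GJB5, CLDN1, FGFR2 and CDKN1A. These settings do not include the test without a filter on low values, where 67 of the 188 kept the call and 121 lost it. CKMT1A, DHRS9, CTSL and the dimmer probe set of FABP5 were among those that lost it there.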

How the data were processed

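RNA from 10 mg of conceptus tissue was converted to biotin-labelled cRNA for Affymetrix bovine arrays, per the labels' protocols. The deposited table holds log2 values. The tools listed per the submitters' processing notes are GCRMA and limma. No version is given there, and joint normalization of all arrays is not stated. Values ran from 2.42 to 13.66, and 112 control probe sets were left out.

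The log2 values were tested without further normalization in limma 3.58.1 (R 4.3.3, statmod 1.5.0), in 1 model of the 9 conceptus arrays with 1 coefficient per group. Tests were two-sided with Benjamini-Hochberg adjustment over 6617 probe sets, and an adjusted p under 0.05 was called. Intervals are 95%. The median standard error of a difference was 0.16, and 3 arrays per group limit the precision. Against a group with a mean below log2 4, folds were computed with its lower arrays raised to 4 and are lower bounds. A gene in a list was represented by its brightest probe set, and lists were not tested as sets.

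Symbols came from the array annotation, with 1 symbol for 13292 probe sets, several for 86 and none for 10638. Gene IDs of 13263 were found in the table of ARS-UCD2.0, which altered 0 symbols. Named genes had 1 symbol, a call and no overlap between the groups. They were the 20 largest rises and the 20 largest falls with both means above the floor, 10 in each direction present in only 1 group, up to 8 in each direction that differed from both AI and SCNT, and called members of the lists, besides defining markers. List members without array values in the text were named from the call alone. The members and gene lists were chosen with earlier results of these data known. Samples of the same replicate number did not deviate together (r of 0.01, 0.17 and 0.02), so arrays were not paired. Other filters, thresholds, normalizations, variance models, sets of arrays, covariates and the omission of each array were tried. Gene list medians in the arrays of low and of high spike-in signal, and sizes with values raised to the floor, were added after seeing the data. The procedure was tested on simulated data.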

Additional observations from a re-analysis of the deposited data

Results flagged for a closer look

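Of the 7 genes in which IVP stood apart from both other groups, each was picked out because its difference from AI was not that of SCNT, by the test of IVP against SCNT. The differences are IVP minus SCNT on the log2 scale with limma's adjusted p. ZFAND2A differed by 1.57 as measured (adjusted p = 0.00142), but all SCNT arrays lay below the floor of log2 4, and against the floor the difference was at least 0.62. Its adjusted p was 0.0124 at most when 1 of the 9 arrays was omitted and 0.0315 without the 3 arrays of high spike-in signal. The 2 probe sets of DNAJB1 differed by 1.32 (adjusted p = 0.0436) and 1.40 (adjusted p = 0.0253), and lost the call in 7 and 6 of the 9 omissions. HSPA1A differed by 1.29 (adjusted p = 0.0436) in 1 of its 5 probe sets and lost the call in 6 omissions.

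VCAN, a proteoglycan of the extracellular matrix, differed by 1.30 (adjusted p = 0.0371) and lost the call in 6 omissions. BMP7 differed by 1.02 (adjusted p = 0.0492) and IMMP2L, a peptidase of the inner mitochondrial membrane, by 0.86 (adjusted p = 0.0436), and each lost the call in 7 omissions. PLET1 was lower than in SCNT, with a measured difference of -2.75 (adjusted p = 0.0125). All IVP arrays lay below the floor, so the level was at least 3.32-fold lower. It lost the call in 1 omission, where the adjusted p was 0.0519. Without the arrays of high spike-in signal, ZFAND2A was the only 1 of these whose call held.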

How the results depend on the processing

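IVP against AI had 1223 calls, 566 higher and 657 lower. Without a filter on low values these were 484, 188 and 296, at an adjusted p under 0.01 they were 492, 173 and 319, and with at least 2-fold change 362, 110 and 252. They were 490, 179 and 311 with the GAPDH covariate and 552, 196 and 356 without the 3 arrays of high spike-in signal. Omission of single arrays gave 787 to 1229 calls, 320 to 574 higher and 467 to 671 lower, with 787 without IVP 1 and 813 without IVP 3. The replicate numbers as a block left 1059 calls (467 and 592) and ended 20 of 188 named calls, quantile normalization gave 615 higher and 650 lower, and centring gave 626 and 632. The 36 calls of IVP against SCNT became 7 without a filter, 116 in a fit of all 12 arrays, 96 with array weights, 5 at an adjusted p under 0.01, 19 with the replicate block, 4 with the spike-in covariate, 7 with the GAPDH covariate, 6 with XIST as a covariate and 5 without the arrays of high spike-in signal. Omissions gave 7 to 64, with 17 without AI 1, 64 without AI 3, 19, 13 and 8 without IVP 1, 2 and 3, and 20, 7 and 18 without SCNT 1, 2 and 3. Of the 188 named probe sets, 0 changed direction in any of 28 settings, and 122 kept the call under all omissions. The cause of these changes was not tested. The search for promoter motifs was not run. Differences within the floor at log2 4 cannot be resolved on these arrays.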
